A study of Mus musculus with 32 samples.

Results

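The comparison was between CCL206 fibroblasts recovered from mouse lung organoid cultures given extracellular vesicles (EVs) and those from cultures given vehicle. CCL206 is a mouse lung fibroblast line. Its cells were stopped from dividing with mitomycin C and mixed 1:1 with 300000 freshly isolated CD45-/CD31-/Epcam+ lung cells of mice aged 8 to 14 weeks, and the mixture was grown in Matrigel. For 72 h the cultures received vehicle or EVs at 1000000000 particles/mL. The EVs were those released by MRC5 cells, a human lung fibroblast line, and were collected by ultrafiltration and size exclusion. The gels were then digested and Epcam microbeads separated the cells, and the CCL206 fraction is what the beads left behind. The members were chosen by their labels, as the EV and the vehicle library of the CCL206 fraction for each of mice 1 to 4, so 8 of the 32 libraries of the series enter the main comparison, 4 with EVs and 4 with vehicle. The same line was used in every culture, so the mouse number marks the donor of the epithelial cells and the 4 pairs do not stand for 4 fibroblast donors. P-values measure the spread among these 4 cultures of 1 line. The other libraries used were those of CCL206 cells given the soluble factors (SFs) of MRC5 cells at 30 µg/mL and those of the Epcam+ cells of the same EV and vehicle cultures.

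Fibroblasts next to the alveoli make the collagens and glycoproteins of the matrix and secrete growth factors that keep alveolar epithelial progenitors dividing. They also answer inflammatory signals: NF-kB and C/EBP factors switch on acute phase proteins, chemokines and the alarmin Il33. EVs are membrane-bound particles that carry proteins and RNAs from one cell to another, and MRC5 EVs carry human molecules into these mouse cultures.

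The CCL206 fraction expressed fibroblast genes. The summed level of the 12 fibroblast markers in the table (of 13 listed) was 15829 to 17349 CPM (counts scaled to library size) with vehicle and 13457 to 18812 CPM with EVs, against 3116 to 4517 CPM in the Epcam+ fraction with vehicle. Epithelial RNA was also present. The 9 alveolar type 2 (AT2) markers summed to 4763, 2921, 3242 and 1856 CPM with vehicle in mice 1 to 4 and to 3094, 3917, 2791 and 3746 CPM with EVs, compared with 9574 to 16291 CPM in Epcam+ cells. The EV library therefore held less AT2 marker RNA than its vehicle partner in mice 1 and 3 (0.65 and 0.861 times) and more in mice 2 and 4 (1.34 and 2.02 times). The 8 general epithelial markers summed to 217.3 to 560.9 CPM with vehicle and to 405.9 to 677.3 CPM with EVs. Their sum was 0.783, 1.89, 1.135 and 3.12 times vehicle in mice 1 to 4. The 9 alveolar type 1 (AT1) markers in the table (of 10) summed to 499.8 to 938.8 CPM with vehicle and to 535.7 to 697.2 CPM with EVs. Basal cell markers summed to 8.73 to 15.7 CPM with vehicle and 8.30 to 17.5 CPM with EVs, and airway cell markers to 39.8 to 67.9 and 29.7 to 63.4 CPM. The 3 macrophage markers in the table (of 12) reached 76.7 to 146 CPM with vehicle and 134 to 183 CPM with EVs, 1.15, 1.63, 1.25 and 2.39 times vehicle in mice 1 to 4, and the other 9 were not analysed here because the table holds no gene with a count of 0 in any library. By fitted change 2 of the 3 were above 0 and 1 below. Of the 3, Cd14, a lipopolysaccharide co-receptor chosen after its values were seen, passed the test described below (0.87 log2, edgeR adjusted p = 0.0488), and length-adjusted it did not (0.51, adjusted p = 0.0702). Vwf, the 1 endothelial marker in the table, was at 0.41 to 1.57 CPM with vehicle and 0.28 to 0.55 CPM with EVs, Msln of mesothelial cells at 51.0 to 62.2 and 68.8 to 92.1 CPM, and 3 smooth muscle and pericyte markers at 148 to 161 and 113 to 144 CPM. In bulk RNA, fewer cells of a type and less RNA per cell cannot be told apart.

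The EV libraries were shallower than the vehicle libraries, with 3105312 to 7605452 counts against 7148561 to 10496280, and they varied more: the median SD of a gene's log2 CPM over 4 libraries was 0.35 with EVs and 0.14 with vehicle. Their differences from vehicle also followed transcript length. Across genes, Spearman's rho between the EV minus vehicle log2 difference and transcript length was -0.336, -0.565, -0.326 and -0.622 in mice 1 to 4, against 0.014 to 0.133 in the Epcam+ pairs of the same cultures. With genes split by transcript length into 10 classes, the shortest class (67 to 1343 nucleotides, 1146 genes) had a median difference of 0.33, 0.76, 0.23 and 1.10 log2, and the longest class (7192 nucleotides and more) one of -0.19, -0.77, -0.25 and -1.05. The trend was present in every pair and steeper in mice 2 and 4. The calls are therefore set beside those with the smoothed length trend of each library taken out (length-adjusted), and counts and values are as counted where nothing else is said.

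**Figure D1:**
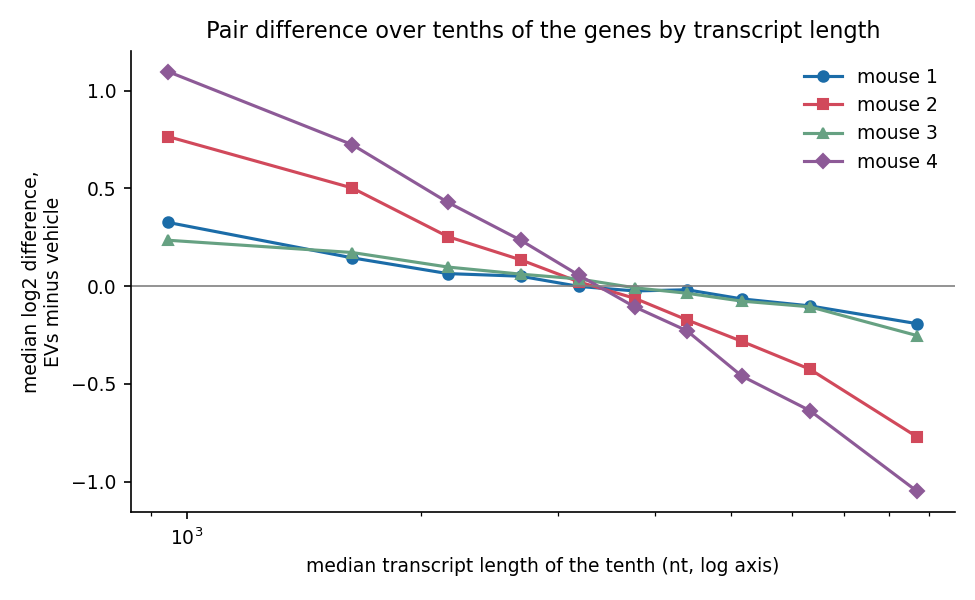
Median log2 difference, EVs minus vehicle, of the genes in each of 10 classes of transcript length (x axis, shortest to longest), with 1 line for each mouse. All 4 lines fall from left to right, from 0.33, 0.76, 0.23 and 1.10 in the shortest class to -0.19, -0.77, -0.25 and -1.05 in the longest, and mice 2 and 4 are the steeper pair.

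With EVs, 281 of 11575 genes rose (2.43%) and 106 fell (0.916%) at an adjusted p under 0.05 (edgeR's quasi-likelihood test with the mouse as a block, Benjamini-Hochberg adjustment over all genes tested), 3.34% in all. At an unadjusted p under 0.05 there were 4175 genes (36.1%). The adjusted p of 382 of the 387 genes lay between 0.04 and 0.05, so the count sits at the edge of the threshold, and without mouse 2 it was 0 (unadjusted p under 0.05 for 1937 genes). Without mouse 1, 3 or 4 it was 1937, 797 or 240. Without the block it was 139. As a description with no test, 127 genes (1.1%) were at least 1.5-fold higher with EVs in all 4 pairs and 110 (0.95%) at least 1.5-fold lower. Of these, 96 and 50 also passed the test. Length-adjusted, 57 genes (0.498%) were at least 1.5-fold higher in all 4 pairs and 73 (0.637%) lower, and 493 (4.3%) and 192 (1.68%) of 11453 genes passed the test. Both ways, 45 genes were higher and 42 lower in all 4 pairs. The list counts below are to be read beside the shares of all genes given here. Pairs differed in how alike they were: the profile of differences of mice 2 and 4 correlated at r = 0.757 across genes, that of mice 1 and 3 at 0.243, and length-adjusted these were 0.635 and 0.175. Genes are not independent replicates, and no test was made of these values.

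Several acute phase genes rose, and each was higher in every pair. Of the 23 genes on the list of acute phase and NF-kB response genes, 6 rose and 0 fell (2.43% of all genes rose), and the same 6 were at least 1.5-fold higher in all 4 pairs (1.1% of all genes). This list, like the others, was chosen with earlier results of these data known, so its count describes it and is no test. The list's median log2 change was 0.21, beside -0.02 for all genes tested, and 0.23 length-adjusted. The members were Lcn2, a siderophore-binding neutrophil protein, Saa3, serum amyloid A of extrahepatic tissue, Chil1, a chitinase-like secreted protein, the chemokines Cxcl5 and Ccl20, which attract neutrophils and CCR6-bearing lymphocytes, and the alarmin Il33. Length-adjusted 7 rose, these 6 and Sod2 (4.3% of all genes), and 4 were 1.5-fold higher in all 4 pairs (0.498% of all genes). The other 17 members did not pass the test as counted. They include genes of the NF-kB pathway itself, named after their values were seen: the subunit Nfkb1 (0.07 log2), its inhibitor Nfkbia (0.46), the feedback inhibitor Tnfaip3 (-0.53), the chemokines Cxcl1 (-0.32) and Ccl2 (0.54) and the superoxide dismutase Sod2 (0.39, and 0.69 with an edgeR adjusted p of 0.0407 length-adjusted). Cxcl3, a neutrophil chemokine outside the list, was also chosen after its values were seen.

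The 250 bases before the transcription start of Lcn2, Saa3, Chil1 and Ccl20 are shown because NF-kB and C/EBP sites are the known switches of such genes (RefSeq, GRCm38.p6, which held 5 of the 6 genes, with no entry for Cxcl5). Capitals mark a C/EBP motif, TTGCNNAA, in Lcn2 and Saa3 and the NF-kB kappa-B consensus in Chil1 and Ccl20, on either strand.
Lcn2 promoter, chr2:32387740-32387989, minus strand: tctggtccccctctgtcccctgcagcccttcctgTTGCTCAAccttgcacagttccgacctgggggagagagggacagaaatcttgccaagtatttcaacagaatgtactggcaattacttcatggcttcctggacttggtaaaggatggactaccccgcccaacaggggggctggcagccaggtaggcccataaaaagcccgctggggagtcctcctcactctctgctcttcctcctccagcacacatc
Saa3 promoter, chr7:46715677-46715926, minus strand: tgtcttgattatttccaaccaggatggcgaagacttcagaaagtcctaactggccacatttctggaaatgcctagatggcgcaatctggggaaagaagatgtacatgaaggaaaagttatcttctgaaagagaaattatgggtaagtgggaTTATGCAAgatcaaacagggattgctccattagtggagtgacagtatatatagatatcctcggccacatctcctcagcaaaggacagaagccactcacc
Chil1 promoter, chr1:134181906-134182155, plus strand: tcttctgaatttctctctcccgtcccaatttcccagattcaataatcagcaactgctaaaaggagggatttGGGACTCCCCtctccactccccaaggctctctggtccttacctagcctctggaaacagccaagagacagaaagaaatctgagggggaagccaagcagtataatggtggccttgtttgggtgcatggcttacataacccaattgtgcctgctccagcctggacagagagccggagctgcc
Ccl20 promoter, chr1:83116516-83116765, plus strand: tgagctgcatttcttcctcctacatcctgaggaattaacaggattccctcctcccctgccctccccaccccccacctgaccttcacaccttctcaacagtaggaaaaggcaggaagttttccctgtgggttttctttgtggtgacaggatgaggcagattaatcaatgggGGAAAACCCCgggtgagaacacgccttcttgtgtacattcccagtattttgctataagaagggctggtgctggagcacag

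Searched on both strands over 250 bases before to 50 after each start, the kappa-B consensus was in 2 of the 6 windows of these genes (Il33 has a pair of starts) and the C/EBP motif in 3 of 6, against 8.46% and 10.8% of all 32851 windows, and either motif in 5 of 6, against 18.6%. The motifs do not share bases in these windows. A match is a description of the sequence only.

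Lcn2 was at 13.8, 8.10, 10.5 and 10.2 CPM with vehicle in mice 1 to 4 and at 48.6, 41.7, 41.1 and 51.2 CPM with EVs. Every EV library was above every vehicle library, as for 12% of all genes tested, and each group was tight around its mean (10.6 ± 2.34 and 45.6 ± 5.04 CPM, SD, n = 4). The log2 fold change was 2.11 ± 0.17 (SE; edgeR adjusted p = 0.00855) and 1.53 ± 0.15 length-adjusted. Saa3 was close to absent with vehicle, at 0.104, 0.137, 0.278 and 1.18 CPM, which is 1 to 12 counts a library, and stood at 6.71, 18.4, 10.5 and 13.6 CPM with EVs. The groups did not overlap, and the lowest EV library was above the highest vehicle library. Its log2 fold change was 4.85 ± 0.52 (SE; edgeR adjusted p = 0.027), and the few vehicle counts leave its size uncertain. In Epcam+ cells of the same cultures Saa3 was at 4.17 to 10.2 CPM with EVs, while Lcn2 was higher, at 26.5 to 45.2 CPM with vehicle and 93.3 to 142 CPM with EVs, and Chil1 too, at 172 to 239 and 354 to 476 CPM. The macrophage marker sum was also higher with EVs in every pair, but by fitted change 2 of its 3 genes were above 0 and 1 below. The part of epithelial or macrophage RNA in the CCL206 levels was not tested.

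Chil1 was at 83.8, 50.9, 58.6 and 34.6 CPM with vehicle and at 142, 120, 125 and 109 CPM with EVs. Its vehicle level had the same order of mice as the summed AT2 markers (highest in mouse 1, lowest in mouse 4), while its EV levels were alike. Chil1 was also higher with EVs in Epcam+ cells, and the part of epithelial RNA in its rise was not tested. Its differences were 0.76, 1.23, 1.09 and 1.64 log2 in mice 1 to 4. The fitted change was 1.18 ± 0.16 log2 (SE). Cxcl5 went from 36.8, 50.6, 31.5 and 37.7 CPM to 67.1, 85.1, 52.9 and 82.7 CPM, 0.87 ± 0.14 log2. Il33 went from 70.2, 63.7, 51.7 and 52.9 CPM to 113, 114, 82.8 and 81.6 CPM, 0.71 ± 0.13 log2. Neither overlapped between groups, and the difference of Il33 varied little among pairs (0.62 to 0.84 log2). Ccl20 was low, at 0.784 to 2.47 CPM with vehicle and 5.29 to 7.24 CPM with EVs, 2.18 ± 0.39 log2, and Cxcl3 at 1.10 to 3.96 and 7.24 to 9.05 CPM, 1.91 ± 0.39 log2. All of these had an edgeR adjusted p of 0.0468 to 0.0488. Length-adjusted, Chil1 (0.88), Il33 (0.71), Cxcl5 (0.50) and Ccl20 (1.55) still passed the test, but Cxcl5 was then under 1.5-fold in mice 2 and 4 and Ccl20 in mouse 2.

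**Figure D2:**
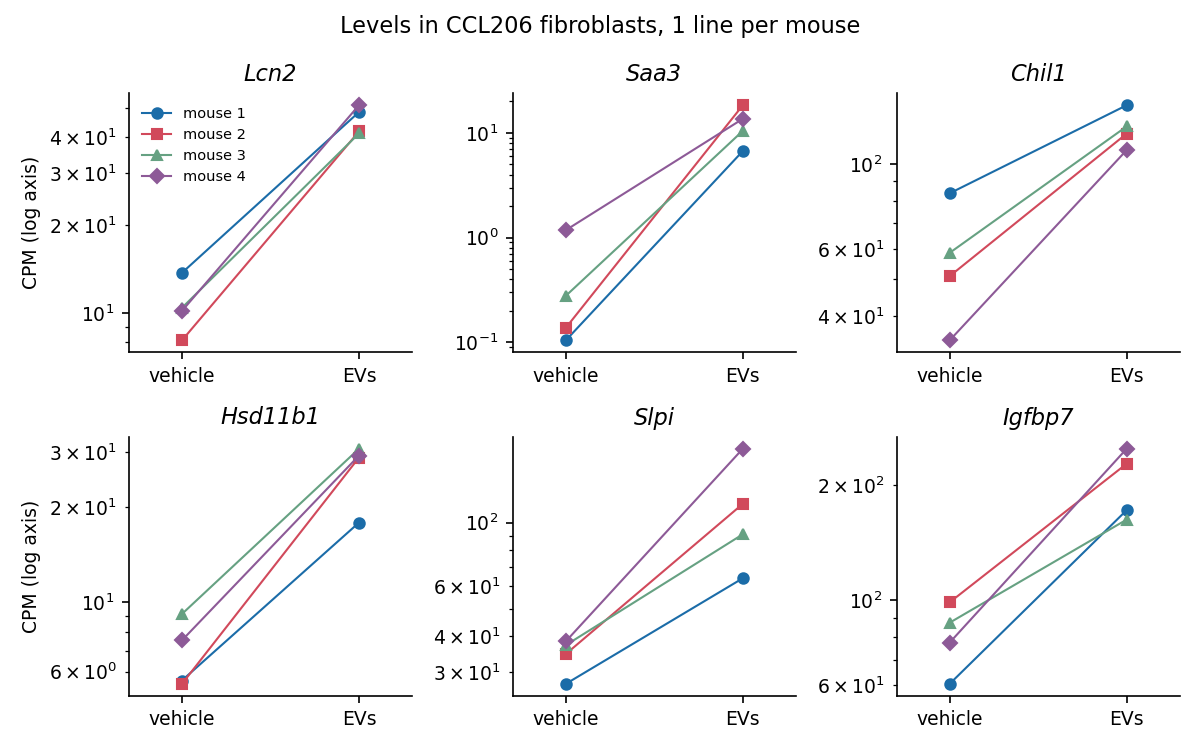
Level in CPM (log axis) of Lcn2, Saa3, Chil1, Hsd11b1, Slpi and Igfbp7 in the vehicle and EV library of each mouse, 1 line per mouse. Every line rises, and the EV points of each gene lie above all its vehicle points, for Lcn2 41.1 to 51.2 CPM against 8.10 to 13.8 CPM.

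Other inflammatory lists held no calls in the main comparison. None of the 23 interferon and MHC class I genes, 10 complement genes or 18 immediate early genes passed the test or was 1.5-fold changed one way in all 4 pairs, as counted or length-adjusted. Their median log2 changes were 0.23, -0.04 and 0.07, and the first became -0.10 length-adjusted. Of all genes 3.34% passed as counted, and lists of this size hold few calls at that share, so the 0 does not set them apart. With all 16 CCL206 libraries in 1 fit, 7, 1 and 2 of their genes rose and 1 of each list fell, beside 2312 and 1883 of 11575 genes. Psmb9, an immunoproteasome subunit induced by interferon, had a log2 change of 0.81 ± 0.23 (SE; edgeR adjusted p = 0.0606). Jund, an AP-1 component among the immediate early genes, had 0.67 ± 0.18 (adjusted p = 0.0579). Hc, complement C5, is outside the complement list and did fall (-1.28 log2, edgeR adjusted p = 0.0468). It was 1.5-fold lower in all 4 pairs, as counted and length-adjusted.

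Hsd11b1, the enzyme that regenerates active glucocorticoid from its inactive form, rose about as strongly as Lcn2. It was at 5.63, 5.49, 9.16 and 7.55 CPM with vehicle and 17.9, 28.8, 30.7 and 29.2 CPM with EVs. The groups did not overlap, and the change was 1.93 ± 0.21 log2 (SE; edgeR adjusted p = 0.027), 1.57 length-adjusted. It was the 1 gene that rose of 17 tested on the list of glucocorticoid activation and response genes, whose median was 0.23 (0.09 length-adjusted), and length-adjusted 2 rose, Hsd11b1 and Cebpd. Cebpb, a transcription factor of both acute phase and glucocorticoid responses, was at 17.6, 85.8, 79.6 and 61.3 CPM with vehicle and at 147, 145, 143 and 153 CPM with EVs. The EV libraries were alike and above all vehicle libraries, but the vehicle library of mouse 1 stood far below the others, and the fitted change of 1.45 ± 0.34 log2 (SE) had an edgeR adjusted p of 0.0512. Its relative Cebpd had 0.94 ± 0.25 log2 (adjusted p = 0.0587), with 0.11 log2 in mouse 3 and 1.67 in mouse 4, and 0.99 (adjusted p = 0.0456) length-adjusted.

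Slpi, an inhibitor of neutrophil elastase, was at 27.3, 34.7, 37.3 and 38.4 CPM with vehicle and at 63.9, 116, 91.0 and 181 CPM with EVs. The groups did not overlap, and the EV libraries of mice 2 and 4 were the highest. The change was 1.63 ± 0.19 log2 (SE; edgeR adjusted p = 0.0354). Length-adjusted, its 4 pairs were close together, at 0.90, 0.92, 1.07 and 1.12 log2. Igfbp7, a secreted protein that binds insulin-like growth factors, went from 60.5, 98.8, 87.4 and 77.6 CPM to 172, 227, 162 and 249 CPM, 1.32 ± 0.16 log2 (adjusted p = 0.0354). Its canonical transcript is listed at 5339 nucleotides, so the adjustment treated it as a long gene and gave a larger change, 1.55. Which transcript these cells make was not tested, and the adjusted size depends on it. Fam162a, a mitochondrial protein induced by hypoxia, rose by 1.49 ± 0.20 log2, from 49.6 to 57.0 CPM with vehicle to 99.7 to 228.5 CPM with EVs. Further genes that rose in every pair both ways, chosen after their values were seen, were the tyrosine phosphatase Ptpn2, which dampens cytokine signalling (0.96 ± 0.15), and Pid1, an adaptor of insulin signalling (0.80 ± 0.13), whose pairs lay within 0.77 to 0.82 log2. Foxd1, a transcription factor of stromal progenitors, had differences of 0.70 to 1.32 log2 in the 4 pairs and had an edgeR adjusted p of 0.0505.

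**Figure D3:**
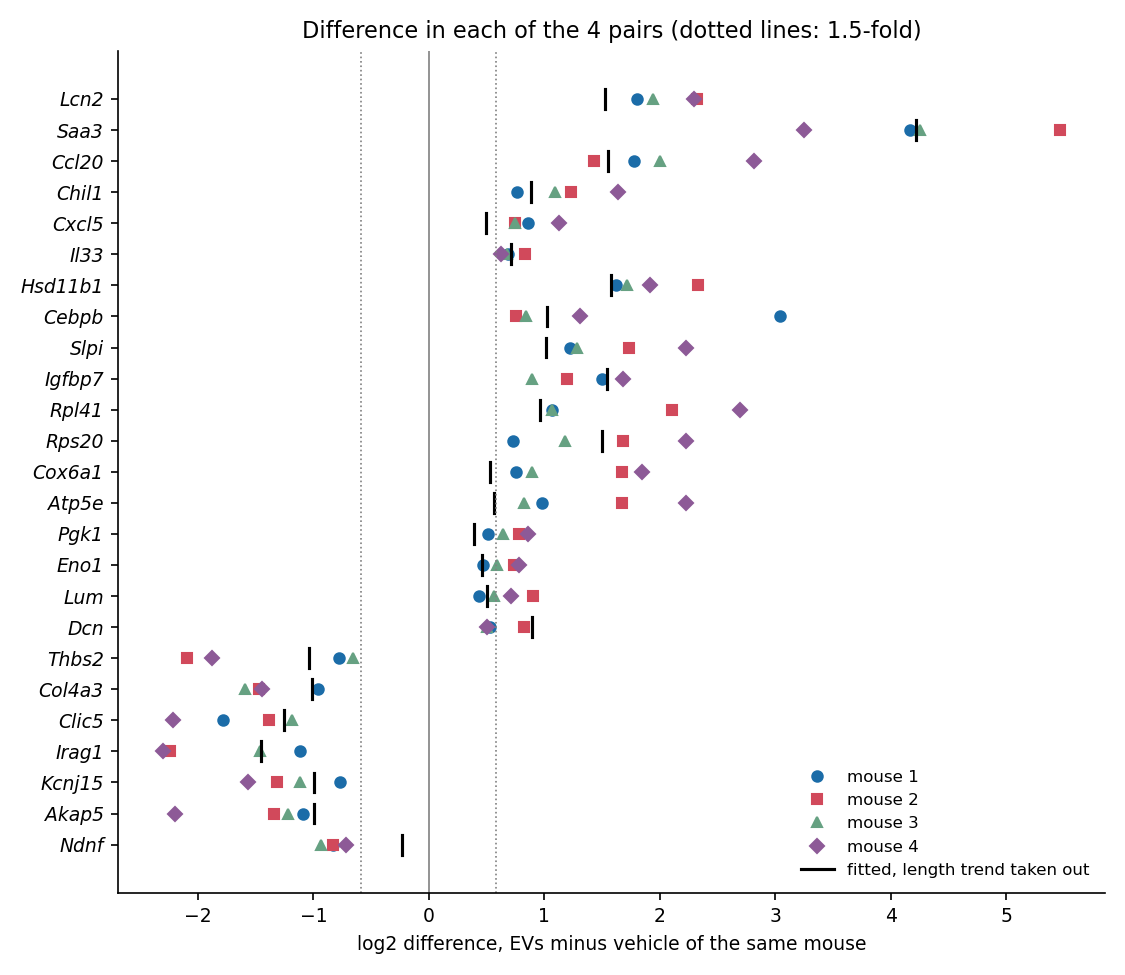
Log2 difference, EVs minus vehicle, of 25 named genes, with a point for each mouse, a black bar for the fitted length-adjusted change and dotted lines at 1.5-fold. The acute phase genes and Hsd11b1, Slpi and Igfbp7 lie right of the upper line in all 4 pairs, Clic5, Irag1, Kcnj15 and Akap5 left of the lower one, and the ribosomal genes spread by mouse, Rpl41 from 1.06 to 2.70.

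Of the 23 lists, the ribosome and the respiratory chain gave the most calls. Of 75 cytosolic ribosomal protein genes 23 rose and 0 fell (2.43% and 0.916% of all genes). Of the 75, 50 had the same sign, higher, in all 4 pairs (21.9% of all genes had). In all 4 pairs 6 reached 1.5-fold (1.1% of all genes): Rpl41, Rps20, Rpl37, Rpl37a, Rpl18 and Rps12. The list's median difference was 0.51, 1.02, 0.20 and 1.25 log2 in mice 1 to 4. Ribosomal protein genes took 3.24% to 4.04% of all counts with vehicle and 4.24%, 7.65%, 4.72% and 8.63% with EVs, the highest shares being those of mice 2 and 4. Of 79 nuclear-encoded respiratory chain genes 24 rose and 0 fell, beside the same shares of all genes. In all 4 pairs 8 reached 1.5-fold, among them Cox6a1 and Cox6b1 of complex IV and Atp5e, Atp5j2, Atp5mpl and Atp5md of the ATP synthase. Their medians were 0.50, 1.06, 0.28 and 1.37 log2. Both lists hold short transcripts, with a median of 1103 and 1101 nucleotides against 3479 for all genes, and their medians followed the length trend by mouse. For 77 of the 79 respiratory genes a transcript length was at hand. The 2 without were Atp5md and Atp5mpl, both among the 8 at 1.5-fold, so the length-adjusted counts leave them out. Length-adjusted, the fitted median dropped from 0.71 to 0.31 log2 for ribosomal genes and from 0.77 to 0.26 for respiratory genes. In that setting 17 and 18 genes rose and 1 of each fell (4.3% and 1.68% of all genes). Then 4 ribosomal (Rpl41, Rps20, Rpl37 and Rpl37a) and 0 respiratory genes were still 1.5-fold higher in all 4 pairs (0.498% of all genes). The canonical transcripts of Rps20, Rpl37 and Rpl37a are listed at 3710, 6111 and 3762 nucleotides, far above the list's median, so the adjustment treated them as long genes.

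Rpl41 was at 147.9, 228.9, 209 and 198 CPM with vehicle and at 311, 988, 437 and 1286 CPM with EVs, 1.73 ± 0.28 log2 (SE; edgeR adjusted p = 0.0468), of which 0.96 was left length-adjusted. Rps20 went from 286.7, 383, 344.4 and 367.3 CPM to 476, 1227, 779.7 and 1722 CPM, 1.46 ± 0.23 log2. The groups of both genes did not overlap, and mice 2 and 4 gave the highest EV levels. Processed copies rose with them. Rps13-ps1 (2.76 ± 0.39), Ftl1-ps1 (1.95 ± 0.28) and Gm10177 (2.71 ± 0.47) may share reads with other loci, so which locus they stand for is uncertain, and the first and the last had at most 12 counts in a vehicle library. Also 1.5-fold higher in all 4 pairs were Romo1, a small mitochondrial membrane protein (1.70 ± 0.25), and Polr2f, a subunit shared by the RNA polymerases (1.35 ± 0.21). Proteasome genes had a median of 0.62 log2 (0.25 length-adjusted), with 2 of 37 rising, Psma7 (0.94) and Psmc3 (0.73), and 0 at 1.5-fold in all 4 pairs. Length-adjusted neither of these passed the edgeR test (0.35 and 0.37 log2, adjusted p = 0.0806 and 0.0558), while Psma3 and Psmb1, chosen after their values were seen, did (0.73 and 0.98).

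Several glycolysis and hypoxia-response genes rose. The list's median was 0.37, 0.55, 0.39 and 0.60 log2 in mice 1 to 4 and, length-adjusted, 0.28, 0.33, 0.31 and 0.24. Of 22 genes 6 rose and 0 fell (2.43% and 0.916% of all genes). In all 4 pairs 17 were higher (21.9% of all genes), none by 1.5-fold in all 4. Length-adjusted 8 rose (4.3% of all genes). Whether the list differs from other lists was not tested. Pgk1, phosphoglycerate kinase, was at 744.6, 797.3, 830.3 and 827.5 CPM with vehicle and at 1059, 1367, 1299 and 1502 CPM with EVs. Eno1, enolase, was at 611.2 to 699.6 and 844.7 to 1200 CPM. Neither gene's groups overlapped, and the changes were modest, 0.70 ± 0.14 and 0.64 ± 0.14 log2 (SE; edgeR adjusted p = 0.0488 and 0.0491). Pfkl, liver phosphofructokinase, rose by 0.76 ± 0.14, and Bnip3, the hypoxia-induced mitophagy receptor, by 0.94 ± 0.18. Vegfa, another hypoxia target listed among the ligands, had 0.49 ± 0.12 (adjusted p = 0.0539).

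**Figure D4:**
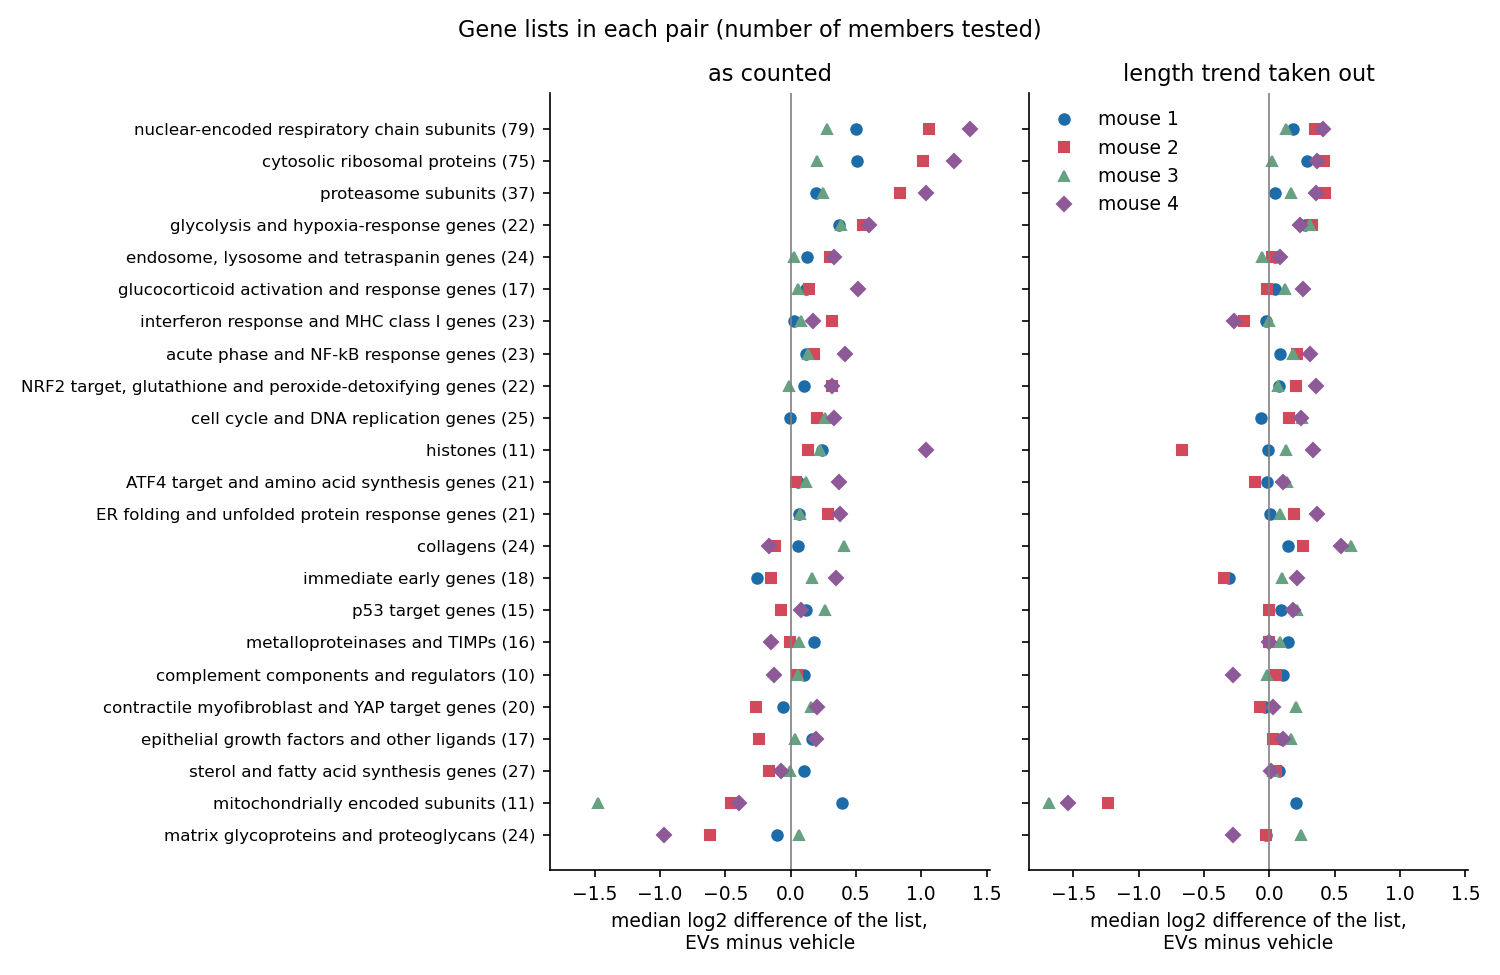
Median log2 difference, EVs minus vehicle, of each of the 23 gene lists in each mouse, as counted (left) and length-adjusted (right). The ribosomal, respiratory and proteasome lists spread by mouse on the left, the glycolysis and hypoxia list lies at 0.24 to 0.33 in all 4 mice on the right, and the mitochondrially encoded genes are the list farthest below 0, at -1.23 to -1.69 in mice 2 to 4.

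The mitochondrially encoded subunits did not move as one. Of the 11 tested, 5 had a fitted log2 change above 0 and 6 below, and their median difference was 0.39, -0.46, -1.47 and -0.40 log2 in mice 1 to 4. Mitochondrial genes took 2.64% to 2.89% of the counts with vehicle and 3.11%, 1.53%, 1.10% and 1.33% with EVs. mt-Nd5, a complex I subunit, was at 3664, 4297, 3925 and 3939 CPM with vehicle and at 4365, 1109, 857 and 555 CPM with EVs. The EV library of mouse 1 was above all vehicle libraries and those of mice 2 to 4 were far below them, so the fitted change of -1.73 ± 0.45 log2 (SE) had an edgeR adjusted p of 0.0554. None of the 11 passed the test (6 fell length-adjusted), and none had the same sign in all 4 pairs. Of the 11, mt-Nd5 and 3 others had the smallest p, and mt-Nd4, mt-Cytb and mt-Nd2 gave -1.52, -0.97 and -1.35 with the same split by mouse.

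Matrix genes did not move as one. Of 24 collagens 0 rose and 1 fell (2.43% and 0.916% of all genes). The 1 was Col4a3, a basement membrane collagen (-1.45 ± 0.31, from 3.53 to 11.5 CPM down to 1.11 to 5.75 CPM, with overlap). Col4a3 was -1.01 and did not pass length-adjusted (edgeR adjusted p = 0.0734). The collagens' median was 0.08 log2 as counted and 0.40 length-adjusted, when 9 rose (4.3% of all genes), and their median transcript is 6456 nucleotides long. Col7a1 and Col16a1 are examples, at 0.67 (edgeR adjusted p = 0.0534) and 0.59 (0.0583) as counted and 1.22 and 0.85 length-adjusted, and Col4a6 had -0.98 (0.0534). Of 24 matrix glycoproteins and proteoglycans (length-adjusted 4 rose and 2 fell), Lum rose, 0.65 ± 0.13 log2 (83.7 ± 5.33 to 132 ± 17.3 CPM, SD, n = 4), and Thbs2, thrombospondin 2, fell by 1.33 log2, from 56.5 to 80.4 CPM to 18.7 to 43.8 CPM. The groups of both did not overlap. The list's median was -0.55, with -0.11, -0.62, 0.06 and -0.97 in mice 1 to 4, and -0.01 length-adjusted, so the sign of the median differed between mice, and length-adjusted it was near 0. Dcn, decorin, had 0.59 ± 0.13 (adjusted p = 0.0507), and Lama2, a laminin chain, -1.23 ± 0.30 (0.0534). Among 16 metalloproteinases and TIMPs, Timp1, a metalloproteinase inhibitor, rose by 0.81 ± 0.18 and Mmp3 had 0.49 (0.0608). Timp1 was 0.22 length-adjusted (adjusted p = 0.168), when none of the 16 passed. Among 20 contractile and YAP target genes Tpm2, a tropomyosin, rose by 0.84 ± 0.18, and the transcription factor Tead1 had -0.90 ± 0.20 (0.0507). The median of the contractile list was -0.05.

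Among 17 growth factors and other secreted ligands 1 rose (2 length-adjusted, with Vegfa), Pdgfa, the platelet-derived growth factor chain that acts on alveolar myofibroblast precursors, which went from 79.4, 92.1, 71.9 and 73.2 CPM to 115, 270, 128 and 290 CPM (1.23 ± 0.23 log2, edgeR adjusted p = 0.0488). Its groups did not overlap, and mice 2 and 4 were the highest. The list's median was -0.06. Fgf7 and Fgf10, fibroblast factors for the alveolar epithelium, had 0.40 ± 0.13 and 0.08 ± 0.16 log2 (adjusted p = 0.0728 and 0.743). Hgf had -0.36 ± 0.24 (0.297), Fgf2 -0.41 ± 0.17 (0.123), Wnt5a -0.42 ± 0.17 (0.117) and Wnt7b -0.61 ± 0.53 (0.422). Ogn codes for the proteoglycan osteoglycin, which was itself given to other cultures of the series. It was at 45.5, 39.8, 50.04 and 50.6 CPM with vehicle and at 31.95, 38.4, 31.5 and 22.8 CPM with EVs. No EV library reached the lowest vehicle library, but the change of -0.59 ± 0.19 log2 had an edgeR adjusted p of 0.0727, and the pair of mouse 2 differed by -0.05.

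Stress and growth lists held few calls, and at the share of all genes (3.34%) lists of this size hold few. With all 16 CCL206 libraries in 1 fit, 5, 10 and 10 genes of the ATF4, NRF2 and ER lists rose and 0, 3 and 3 fell. Of all 11575 genes 2312 rose and 1883 fell there. Psph and Phgdh of serine synthesis rose by 0.90 ± 0.15 and 0.84 ± 0.18 log2 among 21 ATF4 target genes, and Psph was 1.5-fold higher in all 4 pairs both ways (22.4 to 28.8 CPM with vehicle, 39.0 to 63.2 CPM with EVs). Prdx5, a mitochondrial peroxiredoxin, rose by 1.27 ± 0.22 among 22 NRF2 and peroxide-detoxifying genes, and Creld2, an ER stress protein, by 0.85 ± 0.18 among 21 ER genes, where Atf6 had -0.78 (adjusted p = 0.0528). Length-adjusted, Creld2 was 0.42 and did not pass the edgeR test (adjusted p = 0.0556), while Pdia4, a disulfide isomerase of the ER, rose. In the same setting 3 ATF4 targets rose (Psph, Phgdh and the asparagine synthetase Asns), and of the NRF2 list Prdx5 and the superoxide dismutases Sod1 and Sod2 rose and the detoxifying enzymes Gstm1 and Cat fell. Pdia4, Gstm1 and Cat were chosen after their values were seen. As counted, none of 27 sterol and fatty acid synthesis genes, 25 cell cycle genes, 15 p53 targets, 11 histones or 24 endosome and lysosome genes passed the edgeR test. Length-adjusted, 6 of them rose: Mvk, mevalonate kinase, the mitotic kinases Cdk1 and Aurka, Aen, a nuclease among the p53 targets whose change was -0.04 as counted and 0.64 length-adjusted, and the lysosomal cathepsins Ctsl and Ctsz. Aen and Ctsl were chosen after their values were seen. At an unadjusted p under 0.05, Scd1 (-0.45), Aurka (0.81), Cdkn1a (0.65), Gdf15 (1.00), H1f10 (1.28) and Ctsz (0.57) were among their genes, and of these Gdf15 and H1f10 were 1.5-fold higher in all 4 pairs.

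Of the 110 genes 1.5-fold lower in all 4 pairs, 55 belonged to the longest class of transcripts, and several that passed the test are epithelial genes. Epithelial markers did not all go this way. By fitted change, 7 of the 8 general epithelial markers were above 0 and 1 below (median 0.53 log2). Of the 9 AT2 markers 6 were above 0 and 3 below, and of the 9 AT1 markers 3 were above and 6 below. Clic5, a chloride channel protein of AT1 cells, was at 67.6, 44.2, 36.3 and 24.3 CPM with vehicle and at 19.5, 16.7, 15.8 and 5.01 CPM with EVs. Its groups did not overlap, each library of mouse 4 was the lowest of its group, and the change was -1.61 ± 0.20 log2 (SE; edgeR adjusted p = 0.0449), -1.26 length-adjusted. Akap5, another AT1 marker on the list, went from 36.3, 26.9, 18.7 and 15.1 CPM to 16.9, 10.4, 7.88 and 3.06 CPM, with overlap between mice, by -1.42 ± 0.23 log2. The summed AT1 markers, which include Clic5 and Akap5 themselves, were 0.711, 1.06, 0.825 and 1.23 times vehicle in the same pairs. In Epcam+ cells Clic5 was at 141 to 196 CPM with vehicle and 135 to 176 CPM with EVs. The part of epithelial RNA in these falls was not tested. Kcnj15, a potassium channel (-1.17 ± 0.18), Atp8a1, a phospholipid flippase (-1.11 ± 0.19), Hc, complement C5 (-1.28 ± 0.21), Ndnf, a secreted neurotrophic factor (-0.83 ± 0.13), and Scnn1a, the epithelial sodium channel (-1.03 ± 0.19, chosen after its values were seen), also fell, and like the AT2 sum their vehicle level was highest in mouse 1 and lowest in mouse 4. Of these, Ndnf was -0.23 length-adjusted (adjusted p = 0.409).

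Irag1, a regulator of smooth muscle calcium release, was at 64.7, 61.9, 54.0 and 57.4 CPM with vehicle and at 29.7, 12.9, 19.4 and 11.4 CPM with EVs. Its vehicle libraries were alike, and the change was -1.76 ± 0.23 log2 (SE; edgeR adjusted p = 0.0449), -1.45 length-adjusted. Cemip, a hyaluronan-degrading protein (-1.32 ± 0.24), and Muc4, a membrane mucin (-2.14 ± 0.37), chosen after their values were seen, fell both ways too, whereas Usf3 (-1.27 ± 0.20), C2cd3 (-1.07 ± 0.18) and Arfgef3 (-1.56 ± 0.28), each with a transcript over 7192 nucleotides, were under 1.5-fold in at least 1 pair length-adjusted. In that setting Usf3 (-0.54, edgeR adjusted p = 0.167) and Arfgef3 (-0.83, adjusted p = 0.0825) did not pass the test. In the longest class 68 genes fell and 2 rose by the test, and 55 were 1.5-fold lower and 2 higher in all 4 pairs.

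EVs and SFs come from the same MRC5 medium, and the EV libraries were also set against the SF libraries of the same mice. No gene of 11406 passed the edgeR test (0%), while 3251 (28.5%) had an unadjusted p under 0.05 and DESeq2 called 1012. Without mouse 1 the edgeR count was 2483. For the acute phase genes the 2 treatments lay close. Lcn2 was at 45.6 ± 5.04 CPM with EVs and 54.0 ± 13.3 CPM with SFs (SD, n = 4), a log2 difference of -0.22 (95% interval -0.64 to 0.21), and Saa3 at 12.3 ± 4.95 and 15.2 ± 2.60 CPM, -0.36 (-1.05 to 0.33). Chil1 (124 ± 13.99 and 110 ± 31.9 CPM), Cxcl5 (71.9 ± 15.0 and 81.1 ± 12.3 CPM) and Il33 had differences of 0.21 (-0.13 to 0.56), -0.18 (-0.65 to 0.28) and -0.07 (-0.41 to 0.27). The intervals of these genes include 0, which does not show that the treatments act alike. Ccl20 differed by 1.04 (0.26 to 1.81). Other genes with higher levels in EV than in vehicle libraries had intervals above 0, with adjusted p from 0.126 upwards: Hsd11b1 at 26.7 ± 5.91 against 13.1 ± 1.21 CPM (1.01, 0.54 to 1.48), Cebpb (147 ± 4.08 against 42.9 ± 17.5 CPM, 1.87, 1.31 to 2.43), Igfbp7 (202.5 ± 41.9 against 87.4 ± 11.3 CPM, 1.20, 0.81 to 1.59) and Slpi (113 ± 50.2 against 72.9 ± 6.02 CPM, 0.54, 0.01 to 1.07). Clic5 and Irag1 were lower with EVs than with SFs, by -1.07 (-1.54 to -0.60) and -1.37 (-1.97 to -0.77), also without passing the adjusted test.

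**Figure D5:**
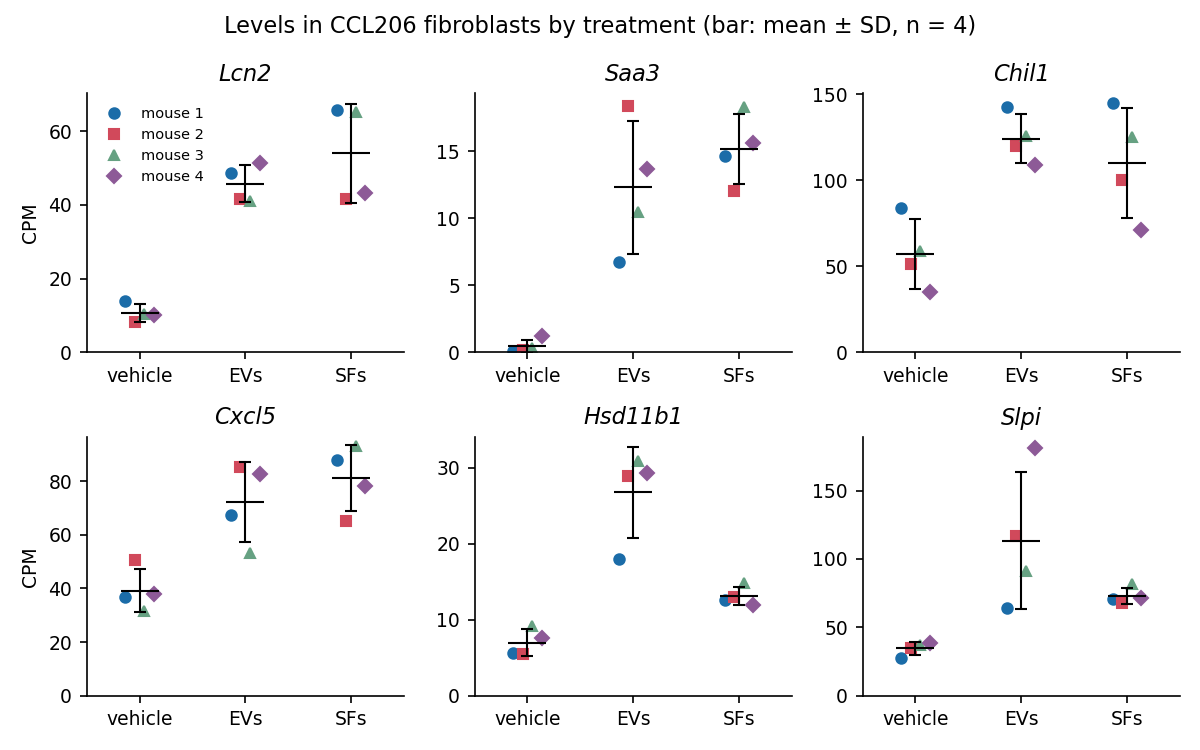
Level in CPM of Lcn2, Saa3, Chil1, Cxcl5, Hsd11b1 and Slpi in CCL206 fibroblasts given vehicle, EVs or SFs, with a point for each of the 4 mice and the mean ± SD. Lcn2, Saa3, Chil1 and Cxcl5 reach similar levels with EVs and SFs, while Hsd11b1 averages 26.7 CPM with EVs and 13.1 CPM with SFs.

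The EV effect in CCL206 fibroblasts was compared with that in the Epcam+ cells of the same cultures by an interaction term over 16 libraries. It differed for 844 of 11791 genes (7.16%), 463 with a larger log2 change in CCL206 (3.93%) and 381 with a smaller one (3.23%). Lcn2 rose in both fractions, from 38.1, 45.2, 26.5 and 42.5 CPM to 142, 93.3, 108 and 119 CPM in Epcam+ cells, and its log2 change did not pass the test of a difference (0.46, 95% interval -0.04 to 0.96, adjusted p = 0.184). Saa3 (1.54, adjusted p = 0.155), Chil1 (0.16, 0.549), Cxcl5 (-0.26, 0.319) and Hsd11b1 (0.35, 0.578) did not pass it either. The log2 change was larger in CCL206 cells for Il33 (by 0.58), Ccl20 (1.66), Slpi (0.96), Igfbp7 (1.03) and Fam162a (1.45), each with an edgeR adjusted p of 0.0381 to 0.0416. The same was true of genes of the ribosome and mitochondria, such as Rpl41 (2.22), Rps20 (1.75) and Romo1 (2.29), and of Gm10177 (4.14), and it was smaller for Clic5 (-1.50), Irag1 (-1.52) and Akap5 (-1.48). The length trend was in the CCL206 pairs and near 0 in the Epcam+ pairs, and length-adjusted the count of differing genes was 240. Without mouse 1, 2, 3 or 4 it was 1390, 0, 195 or 1. Without the block it was 455.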

How the data were processed

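RNA was taken from the CCL206 and Epcam+ fractions of organoid cultures of 4 mice, and 8 of 32 libraries enter the main comparison. Groups and mouse numbers come from the sample labels.
The deposited values are raw counts per gene (11818 genes), which the authors made from Illumina reads trimmed with Trimmomatic 0.30. The methods name GRCm38 patch 6 and the submitters' processing notes GRCm39 and DESeq2 1.34.0. The aligner, the counter and the strand setting are not given in the sources used here. The lowest count in the table is 1, so a gene with no count in any 1 library is not analysed here.

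The 32 columns were all mapped to samples. Totals were 3105312 to 7605452 counts per EV library and 7148561 to 10496280 per vehicle library, so low genes are less precise with EVs. Genes were filtered with filterByExpr, scaled by TMM and tested with the quasi-likelihood F test of edgeR 4.0.16 (R 4.3.3), with the mouse as a block and a Benjamini-Hochberg adjusted p under 0.05. Standard errors are the log2 change over the square root of F. The biological coefficient of variation was 0.199. Pair differences use log2 CPM with a prior count of 2, and 1.5-fold means 0.585 log2. The length trend was a lowess (span 0.3) of each library's deviation from the vehicle mean on log10 length of the GENCODE canonical transcript (11691 genes, 98.9%), entered as an offset. Same-numbered cultures share the epithelial donor. The correlation of their deviations was 0.215, 0.175, -0.0603 and 0.0515 in mice 1 to 4 (mean 0.0953, against -0.0324 for other pairings). No replicates were duplicates. Scripts were tested on simulated data.

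The members and the gene lists were chosen with earlier results of these data known. Named genes were the 10 smallest p in each direction that were 1.5-fold changed in all 4 pairs, then for each list up to 4 genes by p and up to 6 that were so changed, the top 3 of the comparison with Epcam+ cells in each direction, and Ogn with the growth factors the study followed. Genes named after their values were seen are said to be. One gene that met the rule is not reported here. Alternatives were DESeq2 1.42.0, RLE factors, other count filters, no block, 16 libraries, leaving out mice and the length adjustment.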

Additional observations from a re-analysis of the deposited data

Results flagged for a closer look

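In 2 of the 108 named genes, the difference of 1 mouse stood apart from the other 3 by Dixon's test. For Dcn it was mouse 2, at 0.82 log2 against 0.50 to 0.53, and for Jund mouse 4, at 1.38 against 0.38 to 0.50. Chance flags about 1 in 20 such groups.

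The log2 change with EVs differed between CCL206 and Epcam+ cells, by the interaction test (edgeR adjusted p under 0.05 over 11791 genes), for 54 of the 108 named genes. Of all genes, 844 (7.16%) did. Most named genes were picked by the size of p in these same CCL206 libraries, and 3 in each direction by this test itself. Their share was therefore set in part by that choice. The values here are the change in CCL206 cells minus that in Epcam+ cells. Among secreted and signalling genes they were Il33 (0.58), Ccl20 (1.66), Slpi (0.96), Igfbp7 (1.03), Pdgfa (1.26) and Ptpn2 (0.89) on the higher side and Fgf2 (-1.18) and Hgf (-1.23) on the lower. Ribosomal protein genes gave Rpl41 (2.22), Rps20 (1.75), Rpl37 (1.4), Rpl37a (1.75), Rpl18 (1.23) and Rps12 (1.4). Respiratory chain genes gave Atp5md (1.97), Atp5mpl (1.77), Cox6a1 (1.51), Atp5e (1.97), Cox6b1 (1.45) and Atp5j2 (1.37). Processed copies and loci that may share reads with others gave Rps13-ps1 (4.52), Ftl1-ps1 (2.52) and Gm10177 (4.14). Genes that fell in CCL206 cells and include epithelial markers gave Clic5 (-1.5), Akap5 (-1.48), Kcnj15 (-0.76), Hc (-0.95), Atp8a1 (-0.87), Ndnf (-0.67), Scnn1a (-0.8) and Muc4 (-1.94). Matrix genes gave Col4a3 (-1.25), Col4a6 (-1.04), Lama2 (-1.42) and Cemip (-1.21). The others were higher for Fam162a (1.45), Eno1 (0.52), Tpm2 (0.81), Psph (0.93), Prdx5 (1.17), Sod1 (1.25), Psma3 (0.76), Psma7 (0.92), Psmb1 (0.84), Psmc3 (0.73), Cd14 (0.72), H1f10 (2.17), Polr2f (1.5) and Romo1 (2.29) and lower for Irag1 (-1.52), Usf3 (-1.1), C2cd3 (-1.05), Tead1 (-0.89) and Arfgef3 (-1.4). The Epcam+ pairs had a length trend near 0 and the CCL206 pairs did not, and the part of length in these values was not tested gene by gene. Length-adjusted, 240 of all genes passed the same test, against 844.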

How the results depend on the processing

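Counts of genes that passed the test depended strongly on the setting, while directions of named genes mostly did not. EVs against vehicle gave 387 genes with the mouse as a block, and without the block 139. DESeq2 gave 2178 (54.32% higher, against 72.61%), all 16 CCL206 libraries in 1 fit 4207, the length adjustment 685, at least 10 counts in every library 2, a log2 change above 1 226, mice 1 and 3 only 252 and mice 2 and 4 only 5325. Chosen after seeing the data, a robust empirical Bayes step gave 5 (Lcn2, Saa3, Hsd11b1, Slpi and Igfbp7), bias-adjusted quasi-dispersions 679, and mice 1 and 3 with the length adjustment 16. Leaving out 1 mouse gave 0 to 1937. EVs against SFs gave 0 without the block too, 1012 with DESeq2, 3380 with 16 libraries, 36 with mice 1 and 3, and 0 to 2483 leaving out 1 mouse. The difference from Epcam+ cells gave 455 without the block, 1769 with DESeq2, 240 length-adjusted, 24 with mice 1 and 3, and 0 to 1390 leaving out 1 mouse. Genes higher in all 4 pairs were 20 at 2-fold, 2538 at any size and 57 length-adjusted, and genes lower 11, 2552 and 73.

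Lcn2 and Hsd11b1 passed in 15 of 16 alternatives, Saa3 in 14 of 15, and Slpi and Igfbp7 in 14 of 16, each failing without mouse 2. Signs turned for genes that passed in neither fit: Fgf10 to -0.14 with mice 2 and 4 (-0.039 to 0.201 leaving out 1 mouse), Nfkb1 to -0.095 with mice 2 and 4 (-0.028 to 0.15 leaving out 1 mouse), Hgf to 0.107 with mice 1 and 3 and 0.221 with the length adjustment too, Wnt5a to 0.029 in that last setting, and Ccl2 to -0.107 length-adjusted and -0.04 with mice 1 and 3 as well. Aen, -0.04 as counted, turned to 0.644 length-adjusted, 0.102 with mice 1 and 3 and 0.373 in both (-0.173 to 0.033 leaving out 1 mouse). The cause was not tested. Depth limits genes such as Saa3 and Ccl20, at few counts with vehicle.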
